A study of Mus musculus with 24 samples.

Results

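Astrocytes carrying a conditional knockout of Nfix were compared between the olfactory bulb and the thalamus of the mouse, in 6 of the 24 bulk RNA-seq libraries of the series. The libraries were chosen by their labels, the tissue and the genotype KO, and gave 3 libraries of the olfactory bulb and 3 of the thalamus. Genes entered the comparison where at least 3 of the 6 libraries held 10 or more normalized reads, which left 8172 of 24394 genes. Values are normalized reads, which the authors obtained by scaling each library's reads by a size factor. The whole series covered 4 regions (olfactory bulb, hippocampus, cortex and thalamus) and 2 genotypes, with astrocytes collected by fluorescence-activated sorting. The 6 control libraries of the same regions, labelled WT and called control in the series' design text, were set beside the knockout values. The Cre driver, the deleted exons, the sorting marker and the age are not given in the sources used here. Nothing says that the 3 libraries of a group came from separate animals, so the p-values describe variation among libraries that could be technical.

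The targeted gene, Nfix, belongs to the nuclear factor I (NFI) family of transcription factors, which bind the motif TTGGC, often as a palindrome. They act in the switch of neural stem cells to glia and in astrocyte maturation. Astrocytes take up glutamate and GABA, buffer potassium, secrete proteins that act on synapses and lay down extracellular matrix, and their gene expression differs between brain regions. The olfactory bulb also receives new interneurons throughout life and holds olfactory ensheathing glia, which wrap the axons of olfactory sensory neurons, whereas the thalamus borders ventricles that hold the choroid plexus.

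The library of thalamus KO replicate 3 stood apart from the other libraries. It held 2522171 reads and 2220 detected genes, whereas the other thalamus KO libraries held 14904845 and 9032494 reads with 9640 and 7509 genes, and the olfactory bulb KO libraries 12424833 to 13695576 reads with 8131 to 11984 genes. Taking the smallest step of its values as 1 read, a read counted 9.90 normalized reads there, so a floor of 3 reads was 29.7 normalized reads, against 2.05 to 3.90 in the other 5 libraries. These floors cover counting error only. Of the 8172 genes, 24.4% were above 0 in it. The correlation of its log2 values with those of the other 5 libraries was 0.19 to 0.27 across genes, and those 5 correlated with each other at 0.41 to 0.64. The 10 astrocyte markers summed to 33471 to 42011 library-scaled reads (CPM) in the olfactory bulb KO libraries and to 38112 and 33533 CPM in the first 2 thalamus KO libraries, but to 7381 CPM in thalamus KO replicate 3. There the astrocyte genes Aqp4, Aldh1l1, Gjb6 and Gfap were at 0. The glutamate transporter Slc1a3 held 1615 CPM, below the 2643 to 6803 CPM of the other 5 libraries. Normalized reads run high in that library, with a total of 24962150 against 9915664 to 11790620 in the other 5. On that scale its Slc1a3 value was 40321. Its normalized reads are thus not on the same footing as its CPM. Counts of calls are therefore given with all 6 libraries and with the 5 that remain without thalamus KO replicate 3.

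Nfix, the targeted gene, was read in all 6 libraries labelled KO. It held 3440, 4521 and 6119 normalized reads in the olfactory bulb and 6131, 11701 and 3009 in the thalamus. The control libraries held 2360, 2431 and 2552 in the olfactory bulb and 2941, 3641 and 2829 in the thalamus. On this scale 5 of the 6 KO libraries lay above the control libraries of their region, and thalamus KO replicate 3 lay within the range of its controls. Per library total that library held 121 CPM of Nfix, below the 223 to 296 CPM of the controls, while 4 of the other KO libraries held 456 to 998 CPM and olfactory bulb KO replicate 1 held 292. The table has 1 value per gene and none per exon, so loss of the targeted exons was not visible and the genotype label was not checked by it. Between the regions Nfix did not pass in limma (olfactory bulb minus thalamus, -0.39 on the log2 scale, SE 1.15, adjusted p = 0.905 with 6 libraries, and -0.89, SE 0.57, adjusted p = 0.641 with 5). Nfix spans chr8:84699876-84800344 on the minus strand (GRCm38), and its exons overlap Lyl1 and G430095P16Rik on the other strand. Of the other NFI genes Nfia had log2 differences of -0.99 and -0.39 with 6 and 5 libraries, Nfib 2.25 and -0.68, and Nfic 2.07 and -0.68, and 0 of the 4 family members passed.

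**Figure D1:**
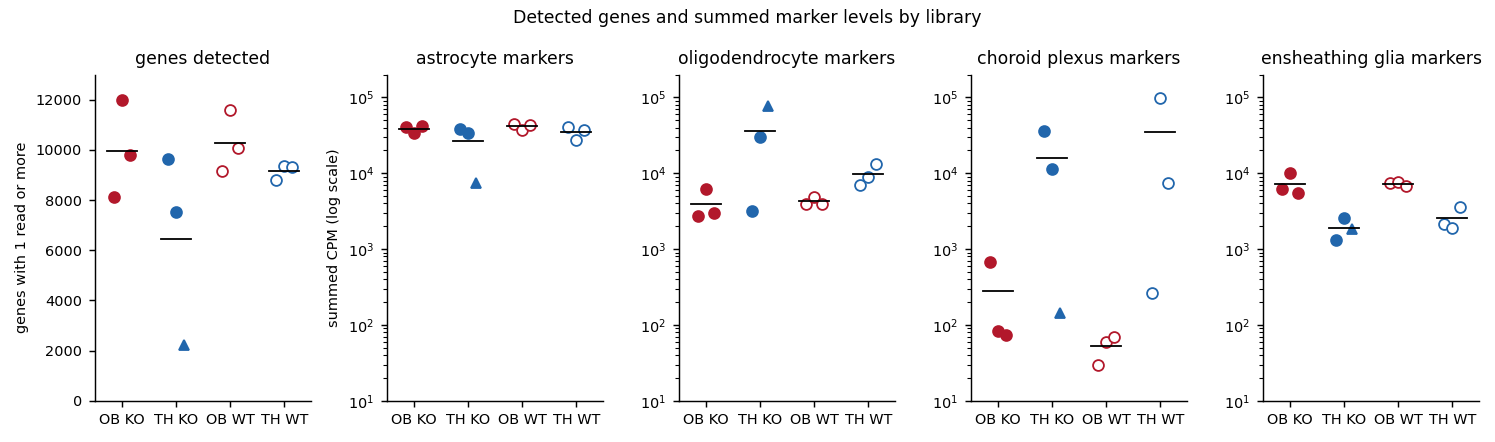
Detected genes and summed marker levels (CPM, log scale) in the olfactory bulb (OB) and thalamus (TH) libraries. Each point is 1 library, filled for KO and open for WT, the triangle is thalamus KO replicate 3 and lines are group means. That library held 2220 genes and 7381 CPM of astrocyte markers, and the olfactory bulb libraries of both genotypes lay above the thalamus libraries in ensheathing glia markers.

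With all 6 libraries, 3 of 8172 genes (0.0367%) passed between olfactory bulb and thalamus KO astrocytes in limma at an adjusted p under 0.05. Fabp7 and Chst2 were higher in the olfactory bulb (0.0245%) and Ttr was lower (0.0122%). Without thalamus KO replicate 3, 39 genes were higher (0.484% of 8059 genes tested) and 5 lower (0.062%), 44 in all (0.546%), and the first 3 were among them. At an unadjusted p under 0.05 there were 612 genes with 6 libraries and 719 with 5. The median log2 difference over all genes was 1.47 with 6 libraries and 0.37 with 5. The median standard error was 2.16 and 1.84. The count with 6 libraries was 1 without each of the olfactory bulb libraries in turn and to 0 without thalamus KO replicate 1. A gene found in the thalamus alone cannot reach 3 of 5 libraries, which bears on the split into 39 and 5. A filter of 10 or more in at least 2 libraries gave 36 higher and 5 lower.

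**Figure D2:**
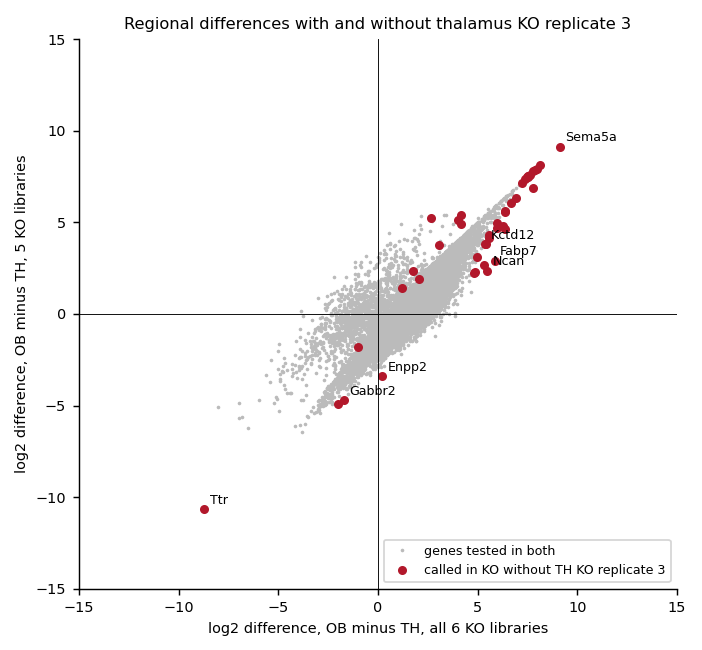
Log2 difference of olfactory bulb minus thalamus KO for each gene with all 6 libraries (x axis) and without thalamus KO replicate 3 (y axis). Red points are the 44 genes called with 5 libraries. Most genes lie to the right of 0 on the x axis, where the median was 1.47, and Enpp2 moves from 0.19 to -3.41.

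Fabp7, which encodes a fatty acid binding protein of radial glia and immature astrocytes, was the gene with the smallest p among those higher in the olfactory bulb when all 6 libraries were used. It held 31512, 48766 and 26582 normalized reads in the olfactory bulb KO libraries and 3979, 5317 and 0 in the thalamus KO libraries. All olfactory bulb libraries lay above all thalamus libraries. The log2 difference was 5.85 (SE 1.23, limma, adjusted p = 0.00851) with 6 libraries and 2.90 (SE 0.42, adjusted p = 1.22e-08) with 5, where the means differed 7.66-fold. Chst2 encodes a sulfotransferase that adds sulfate to N-acetylglucosamine on glycans. Its values were 41163, 16311 and 40795 in the olfactory bulb and 4680, 7938 and 19.8 in the thalamus, again without overlap. It differed by 4.86 (SE 1.12, limma, adjusted p = 0.0432) with 6 libraries and by 2.30 (SE 0.42, adjusted p = 2.78e-05) with 5. In this bulk RNA fewer cells of a type and less RNA per cell cannot be told apart.

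Ncan, the gene of the matrix proteoglycan neurocan, had the smallest p of all genes with 5 libraries. The olfactory bulb KO libraries held 135199, 66502 and 100843 normalized reads and the thalamus KO libraries 34930, 10121 and 19.8. Each olfactory bulb library was above each thalamus library, and the lowest value was that of thalamus KO replicate 3. The log2 difference was 2.36 (SE 0.30, limma, adjusted p = 3.2e-11) with 5 libraries, a 4.48-fold difference of means, and 5.46 (SE 3.16, adjusted p = 0.721) with 6. Kctd12, an auxiliary subunit of GABA-B receptors, held 15089, 38455 and 17727 in the olfactory bulb and 882, 2662 and 49.5 in the thalamus. It was higher in the olfactory bulb by 3.82 (SE 0.52, limma, adjusted p = 1.28e-09) with 5 libraries and by 5.38 (SE 1.36, adjusted p = 0.12) with 6, where it did not pass. Exons of Kctd12, and likewise of Enpp2, Glul, Adgrb1 and Clca3a1, overlap other annotated genes, so reads of these pairs could be shared.

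Promoters were compared because the knockout targets a factor with a known motif and these 4 genes were higher in the olfactory bulb. The windows run from 250 bases before to 50 after the start site on the gene's strand (RefSeq, GRCm38.p6). Capitals mark the NFI motif TTGGC or its reverse complement GCCAA. Fabp7 lies at chr10:57784881-57788450 (plus strand) with its window at chr10:57784673-57784972, Ncan at chr8:70093085-70120873 (minus strand) with its window at chr8:70120795-70121094, Kctd12 at chr14:102976581-102982637 (minus strand) with its window at chr14:102982588-102982887, and Chst2 at chr9:95399292-95406722 (minus strand) with its RefSeq window at chr9:95407221-95407520.
Fabp7: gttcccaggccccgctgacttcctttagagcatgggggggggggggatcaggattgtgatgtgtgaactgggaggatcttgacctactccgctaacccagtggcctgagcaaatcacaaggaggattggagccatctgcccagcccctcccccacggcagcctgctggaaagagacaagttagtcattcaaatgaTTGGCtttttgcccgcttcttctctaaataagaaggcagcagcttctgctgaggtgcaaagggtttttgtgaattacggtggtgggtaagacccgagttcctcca
Ncan: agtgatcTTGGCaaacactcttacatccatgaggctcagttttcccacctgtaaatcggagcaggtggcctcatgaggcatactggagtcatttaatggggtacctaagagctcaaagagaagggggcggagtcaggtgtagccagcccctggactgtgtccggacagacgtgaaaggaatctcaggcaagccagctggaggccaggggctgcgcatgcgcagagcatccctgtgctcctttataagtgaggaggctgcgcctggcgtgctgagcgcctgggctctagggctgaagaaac
Kctd12: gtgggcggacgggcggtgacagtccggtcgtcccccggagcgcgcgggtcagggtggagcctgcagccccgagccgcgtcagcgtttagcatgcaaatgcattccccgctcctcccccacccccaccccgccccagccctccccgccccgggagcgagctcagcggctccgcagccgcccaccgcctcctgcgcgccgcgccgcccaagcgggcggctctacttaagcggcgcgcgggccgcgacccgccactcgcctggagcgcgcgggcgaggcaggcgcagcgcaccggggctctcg
Chst2: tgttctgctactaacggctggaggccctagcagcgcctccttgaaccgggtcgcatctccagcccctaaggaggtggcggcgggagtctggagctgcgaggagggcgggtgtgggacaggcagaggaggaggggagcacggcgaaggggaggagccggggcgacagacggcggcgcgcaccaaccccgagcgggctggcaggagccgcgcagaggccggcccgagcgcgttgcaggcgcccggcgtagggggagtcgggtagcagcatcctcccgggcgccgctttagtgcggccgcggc
The motif stood once in the Fabp7 window, at -55 from the start site, and once in the Ncan window, at -243, and these letters were not in the Kctd12 and Chst2 windows. Of the 44 called genes 30 had a promoter in the table, and 14 of them (46.7%) held the motif on either strand. Over all 32851 promoter windows, each counted singly, the share was 46.7%. The shares are not like for like. The 30 genes had 35 windows, and a gene was counted as holding the motif if any of its windows did. A match is a description of letters and not a bound site.

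Chrdl1 encodes an astrocyte-secreted BMP antagonist that promotes synaptic entry of calcium-impermeable AMPA receptors. It held 7383, 5672 and 8925 normalized reads in the olfactory bulb and 130, 16.9 and 0 in the thalamus, which differed by 6.88 on the log2 scale with 5 libraries (SE 1.04, limma, adjusted p = 4.99e-08). Adgrb1, an adhesion receptor that recognises phosphatidylserine on apoptotic cells, held 11686, 10099 and 12897 in the olfactory bulb and 2242, 22.1 and 3840 in the thalamus (5.42, SE 0.79, limma, adjusted p = 1.27e-07). Both genes had groups that did not overlap, and for Adgrb1 the low thalamus value was that of replicate 2, not of replicate 3.

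Ptprt, a receptor tyrosine phosphatase, differed by 4.66 (SE 0.75, limma, adjusted p = 5.88e-07), with 20656, 5251 and 7094 against 659, 186 and 0 normalized reads. Gria1, an AMPA-type glutamate receptor subunit, differed by 2.70 (SE 0.53, limma, adjusted p = 0.000217), with 24758, 7912 and 18861 against 2362, 2372 and 0. The lipocalin Apod, which carries small lipids, differed by 2.33 (SE 0.50, limma, adjusted p = 0.0021) with 5 libraries, from 11638, 26604 and 15109 against 1079, 10114 and 10877. Its highest thalamus value, in replicate 3, lay just below the lowest olfactory bulb value. The gene 6330403K07Rik had 10301, 2159 and 7094 against 156, 210 and 0 (4.82, SE 0.93, limma, adjusted p = 0.000146). With 6 libraries none of these 6 genes from Chrdl1 to 6330403K07Rik passed, and their adjusted p-values in limma were 0.322 to 0.673.

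Called genes at 0 in all 3 thalamus KO libraries numbered 10. They reached the filter through the olfactory bulb libraries alone, so their direction was fixed by it. Their thalamus values did not vary, so the standard errors hold no spread from that group. The p-values of these genes describe the fit and are not separate support for a regional difference. Sema5a, an axon guidance protein, held 10403, 3208 and 5256 normalized reads in the olfactory bulb, at least 529-fold above the mean of the 3-read floors of the thalamus KO libraries (11.9 normalized reads). Its fitted log2 difference was 9.13 with either set (SE 1.51, limma, adjusted p = 1.18e-06 with 5 libraries, and SE 2.28, adjusted p = 0.12 with 6). Clca3a1, of the CLCA family of secreted proteins, held 1817, 4821 and 2565 and was at least 258-fold higher (limma, adjusted p = 0.00228 with 5 libraries). The Wnt antagonist Frzb held 969, 3268 and 3380, at least 214-fold above the floor (limma, adjusted p = 0.00976). The peptide Npy held 905, 3240 and 2068, at least 174-fold above it (limma, adjusted p = 0.0251). None of the 4 had a read in the thalamus KO libraries. In WT thalamus Sema5a held 0, 243 and 180 normalized reads, and Clca3a1, Frzb and Npy were at 0. With 6 libraries none of the 10 passed (limma, adjusted p from 0.12 to 0.372). The other 6, named after their values were seen, were the growth factor Igf1, the Src-family kinase Lyn, the kinase scaffold Akap12, the potassium channel Kcnd3, Cpne8 and Tex15, with limma adjusted p-values of 0.00859 to 0.0366 with 5 libraries. Over all genes, 195 held 10 or more in every olfactory bulb KO library and 0 in the first 2 thalamus KO libraries, or 185 with 0 in all 3. In the opposite direction there were 58 and 2 genes. The 2 directions are not alike in what they ask for. The count of 58 needed 10 or more in the first 2 thalamus KO libraries only. The count of 2 also needed it in thalamus KO replicate 3, where 24.4% of the genes tested were above 0. In WT, with all 3 libraries of each region, the counts were 120 and 18. The part of detection in these counts was not tested.

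Ttr, the transport protein of thyroid hormone and retinol made by the choroid plexus, was lower in the olfactory bulb. It held 0, 391 and 562 normalized reads in the olfactory bulb KO libraries and 350257, 133023 and 3583 in the thalamus KO libraries, and all thalamus libraries lay above all olfactory bulb libraries. The log2 difference was -8.71 (SE 1.47, limma, adjusted p = 2.92e-05) with 6 libraries and -10.68 (SE 1.00, adjusted p = 1.48e-09) with 5. The 10 choroid plexus markers, Ttr among them, summed to 678, 83.6 and 74.2 CPM in the olfactory bulb and to 36125, 11538 and 144 CPM in the thalamus (exact two-sided permutation test, p = 0.2, and 0.2 without replicate 3). Ttr made up most of the thalamus sums, and the other 9 summed to 678, 44.2 and 19.3 CPM in the olfactory bulb and to 1727, 195 and 0 CPM in the thalamus, which overlapped. Kl and Folr1 were at 0 in the olfactory bulb KO libraries. In the thalamus KO libraries Kl held 5385, 421 and 0 normalized reads and Folr1 996, 51.9 and 0. Of 6 tested members 5 lay below 0 (median -4.23 with 5 libraries), and 1, Ttr, passed. Over all genes 3354 of 8059 lay below 0 with 5 libraries, and 0.062% passed as lower. With 6 libraries the median was -2.21. The part of choroid plexus RNA in these differences was not tested.

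Enpp2, or autotaxin, makes lysophosphatidic acid and can split nucleotides, and it is also abundant in choroid plexus and oligodendrocytes. It held 2456, 5632 and 2626 normalized reads in the olfactory bulb and 62090, 19975 and 9.90 in the thalamus. With 5 libraries the groups did not overlap and the log2 difference was -3.41 (SE 0.50, limma, adjusted p = 2.3e-08). With thalamus KO replicate 3, where it held 1 read, the fitted log2 difference turned to 0.19 (SE 1.46, limma, adjusted p = 0.965), while the arithmetic means, 3572 and 27358 normalized reads, still put the thalamus 7.66-fold higher. Beside it stand the choroid plexus sums above, and their part in the value was not tested.

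Clu, which encodes the secreted chaperone clusterin of astrocytes, held 7946, 6150 and 6560 in the olfactory bulb and 24886, 22869 and 4444 in the thalamus. The lowest value was again that of thalamus KO replicate 3, and without it the groups did not overlap (-1.80, SE 0.46, limma, adjusted p = 0.0253, against -0.99 and 0.733 with 6 libraries). Gabbr2, a subunit of the GABA-B receptor, held 186, 1024 and 27.2 in the olfactory bulb and 3647, 7094 and 0 in the thalamus. It passed with 5 libraries (-4.70, SE 1.23, limma, adjusted p = 0.0302) and not with 6 (-1.70, adjusted p = 0.797). Mapk4, an atypical MAP kinase, held 10.3, 178 and 851 against 646, 31122 and 0, values that overlapped (-4.93, SE 1.34, limma, adjusted p = 0.0466 with 5 libraries, and -1.99, adjusted p = 0.765 with 6). The next genes by p, Bmpr1b (-2.85), Itih3 (-3.00) and Bcas1 (-4.86), did not pass with 5 libraries (limma, adjusted p = 0.0564, 0.073 and 0.075).

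Of the 21 called genes named here by rule, 17 could be tested without each of the 5 libraries in turn, and 8 passed every time. These 8 were Ncan, Kctd12, Fabp7, Chrdl1, Adgrb1, Ptprt, Ttr and Enpp2. Sema5a, Clca3a1, Frzb and Npy, at 0 in all thalamus KO libraries, reached the filter only where an all-zero thalamus library was left out, so leaving out libraries gave no check of them. Clu passed in none of the 5 (limma, adjusted p from 0.0802 to 0.354). Gabbr2, Mapk4 and Gria3 passed in 1 each, Glul and Apod in 2, Gria1 and 6330403K07Rik in 3 and Chst2 in 4. Counts over all genes were 11, 13 and 8 without olfactory bulb KO replicates 1, 2 and 3 and 227 and 66 without thalamus KO replicates 1 and 2, where a single thalamus library is assumed to vary like the olfactory bulb group.

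**Figure D3:**
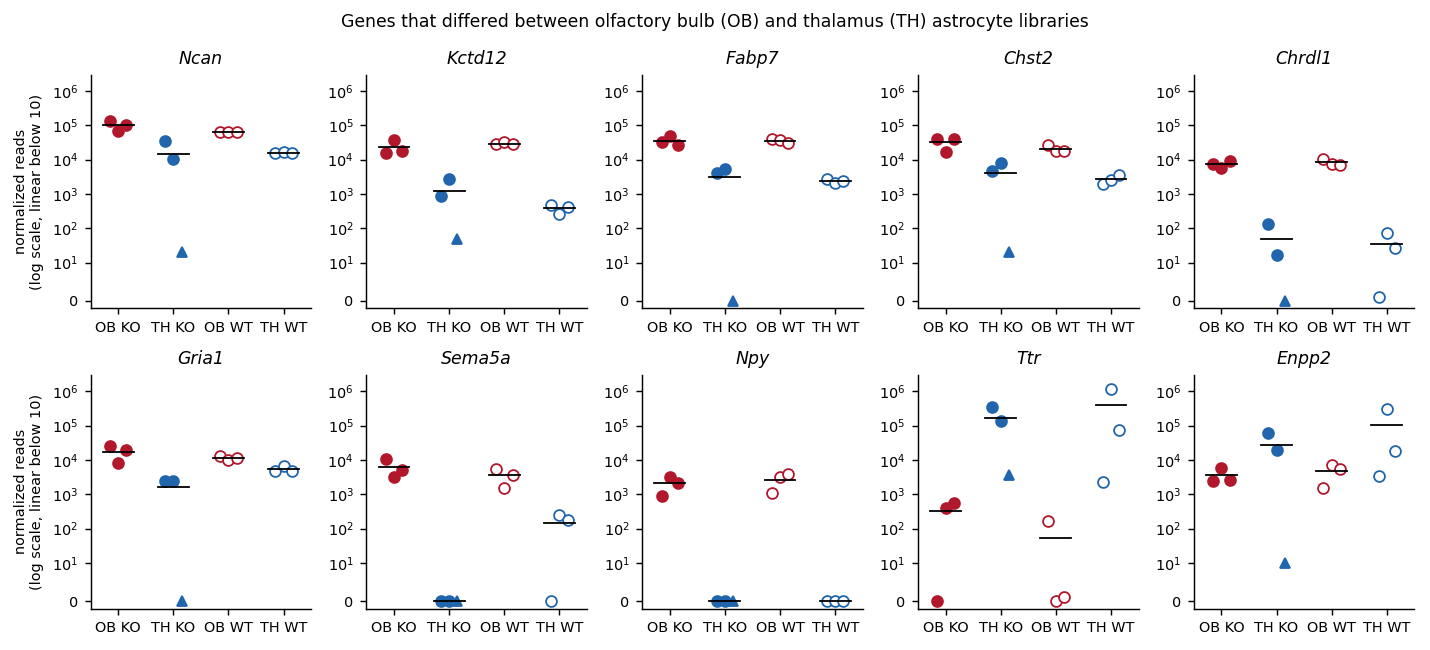
Normalized reads per library (log scale, linear below 10) of 10 genes that passed between olfactory bulb (OB) and thalamus (TH) KO astrocytes without thalamus KO replicate 3, with the WT libraries beside them. Filled points are KO, open points WT, the triangle is thalamus KO replicate 3 and lines are arithmetic means. Sema5a and Npy were at 0 in all thalamus KO libraries, and Ttr and Enpp2 were higher in thalamus KO replicates 1 and 2 than in every olfactory bulb KO library.

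Among transcription factors of the bulb and telencephalon 11 of 25 were tested, and 9 lay above 0 with 5 libraries (median 1.71, all genes 0.37), while 0 passed. Sp8, a factor of bulb interneurons, held 244, 471 and 394 normalized reads in the olfactory bulb and 0 in all thalamus KO libraries, at least 31.1-fold above the floor of 11.9 (limma, adjusted p = 0.44 with 5 libraries). Sp8 reached the filter through the olfactory bulb alone, which fixed its direction. The groups of 4 members did not overlap with the olfactory bulb higher, where 16.1% of all genes did so (14.3% with 6 libraries), and in WT those of 6 of 12, where 9.41% of all genes did so. Etv1 (1.77) and Pax6 (1.71) did not pass either. Of 25 diencephalic factors 9 were tested, with 6 above 0, a median of 0.16 and 0 passing. Tcf7l2, the Wnt effector known for its high expression in thalamus, held 2646, 1686 and 1556 normalized reads in the olfactory bulb and 678, 10.4 and 0 in the thalamus (4.02, SE 1.30, limma, adjusted p = 0.162 with 5 libraries). Its WT values, 1651, 1915 and 2056 against 2338, 625 and 2879, overlapped (0.21). Otx2, a factor of diencephalon and choroid plexus, held 0, 0 and 19.8 against 1652, 76.6 and 0 (-4.72, adjusted p = 0.472).

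Of 29 astrocyte identity genes tested without thalamus KO replicate 3, 11 lay above 0 and 18 below (median -0.31), 1 passed higher and 1 lower. Over all genes 4705 of 8059 lay above 0, 0.484% passed higher and 0.062% lower. The same shares of all genes belong beside the called members of the lists that follow. The glutamine synthetase gene Glul, which turns glutamate into glutamine, was the higher one. It held 75944, 48550 and 67991 normalized reads in the olfactory bulb and 24862, 22874 and 35016 in the thalamus, with no overlap (1.40, SE 0.31, limma, adjusted p = 0.00395 with 5 libraries). With 6 libraries the difference was 1.22 (SE 0.52, adjusted p = 0.656). Clu was the lower one. The groups of 11 members did not overlap with the olfactory bulb lower, where 9.05% of all genes did so, and those of 6 of 29 in WT, where the share of all genes was 5.12%. With 6 KO libraries the groups of 1 member did not overlap in that direction (1.46% of all genes). Slc1a3 held 76379, 53347 and 69609 against 26909, 40476 and 40321 and did not overlap, but did not pass (0.99, SE 0.30, limma, adjusted p = 0.109). With 6 libraries 23 of 29 lay above 0, at a median of 1.22 beside 1.47 for all genes.

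GABA genes, which the series title names, had 22 of 30 tested, with 10 above and 12 below 0 (median -0.19 with 5 libraries). The GABA-B receptor genes split, with the auxiliary subunit Kctd12 higher and the receptor subunit Gabbr2 lower in the olfactory bulb, and no other member passed. Gabrg3 (3.21), Odc1 (2.04) and Aldh9a1 (1.75) did not pass. Purinergic genes had 11 of 31 tested, with 4 above and 7 below 0 (median -0.62), and Enpp2 was the 1 that passed. P2rx7, an ATP-gated channel, held 1184, 212 and 22.2 in the olfactory bulb and 0 in all thalamus KO libraries without passing (limma, adjusted p = 0.55). The filter was reached by P2rx7 through the olfactory bulb alone, which fixed its direction. The nucleoside transporter Slc29a2 (2.93), the ectonucleotidase Entpd1 (1.58) and the adenosine receptor Adora1 (0.65) did not pass.

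Glutamate genes had 14 of 22 tested and 3 passed, all higher in the olfactory bulb (0.484% of all genes). They were Glul, Gria1 and Gria3, also an AMPA receptor subunit, with 4117, 1194 and 2478 against 203, 0 and 0 normalized reads (5.65, SE 1.45, limma, adjusted p = 0.0253 with 5 libraries and 0.644 with 6). Without each of the 5 libraries in turn, Gria1 passed in 3 fits, Glul in 2 and Gria3 in 1. Gria2, another AMPA receptor subunit, held 3901, 5390 and 8038 against 452, 2950 and 1673 and did not pass (2.24, SE 0.71, adjusted p = 0.146). The list's median was 0.03, and -0.08 with TMM factors. Synapse factors had 24 of 30 tested, 19 above 0 and a median of 1.27, and Chrdl1 alone of the list passed. Adam23, a partner of the LGI proteins, held 5233, 3622 and 6440 against 2011, 236 and 0 (2.82, SE 0.78, limma, adjusted p = 0.0528). Matrix genes had 14 of 23 tested, with Ncan passing, and 9 above 0 (median 0.25). Ptprz1 held 77703, 53121 and 72548 against 46259, 36607 and 11748 and did not pass (0.70, SE 0.29, adjusted p = 0.416).

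Lipid and sterol genes had 25 of 26 tested, with Fabp7 passing as higher and Clu as lower (median 0.22). Potassium, water and ion genes had 21 tested and 0 passed, and the potassium channel Kcnj10 held 41830, 34582 and 44581 against 29455, 49413 and 1593 (0.07, SE 0.32 with 5 libraries, limma, adjusted p = 0.975). Ribosomal protein genes lay lower in the olfactory bulb in 21 of 29 (median -0.62 with 5 libraries) and 0 passed. With 6 libraries their median was -0.31 as deposited, -0.02 with TMM factors and 0.12 with library totals. Stress and immediate early genes had a median of -1.27 with 6 libraries and -0.01 with 5. Klf6 is an example, at 484, 1455 and 13.2 against 695, 309 and 34373, where thalamus KO replicate 3 holds the highest value. With 6 libraries the medians were 2.14 for bulb and telencephalon factors, 1.58 for GABA, 0.53 for purinergic, 1.64 for glutamate, 2.79 for synapse, 2.12 for matrix, 1.34 for lipid and 1.47 for potassium genes, beside 1.47 for all genes.

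Signalling and maturation lists held no gene that passed. The Wnt antagonist Frzb and the BMP antagonist Chrdl1, which passed with 5 libraries, were counted in the ensheathing glia and synapse lists instead. Among Eph receptors and ephrins 8 of 21 were tested (median 1.29 with 5 libraries). The ligand Efna5 held 2083, 1006 and 660 normalized reads in the olfactory bulb and 0, 3.90 and 0 in the thalamus (6.58, SE 2.04, limma, adjusted p = 0.129). Efna5 reached the filter through the olfactory bulb alone, which fixed its direction. The Wnt ligand Wnt5a lay the other way, at 0.861, 50.5 and 2.47 against 964, 1787 and 0 (-6.04, SE 2.20, limma, adjusted p = 0.283), in a Wnt list with 10 of 17 tested members above 0 (median 0.24). Of 15 glial transcription factors 10 lay above 0 (median 0.30), and Sox9, which drives gliogenesis, held 1593, 4004 and 3571 against 13206, 5386 and 37302 (-1.57, SE 0.62, limma, adjusted p = 0.385).

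Dio2, the deiodinase that activates thyroid hormone in astrocytes, held 11262, 6300 and 15291 normalized reads in the olfactory bulb and 6226, 1354 and 0 in the thalamus (1.82, SE 0.56, limma, adjusted p = 0.118 with 5 libraries). Ntrk2, the receptor gene of the neurotrophin BDNF, held 63022, 47103 and 58712 against 49444, 52890 and 3207 (0.13, SE 0.29, adjusted p = 0.947). The serotonin receptor Htr2c, which choroid plexus expresses strongly, was not detected in any olfactory bulb KO library, whereas the thalamus KO libraries held 1662, 231 and 29.7. The imprinted growth factor Igf2 held 0.861, 455 and 19.8 against 3120, 2310 and 41103, with no overlap (-5.66, SE 1.85, limma, adjusted p = 0.175 with 5 libraries), and in WT 484, 69.3 and 443 against 7734, 15951 and 11010 (-5.41, adjusted p = 7.27e-11). Igf2 is also in the fibroblast marker list, whose sums are given with the other cell types.

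**Figure D4:**
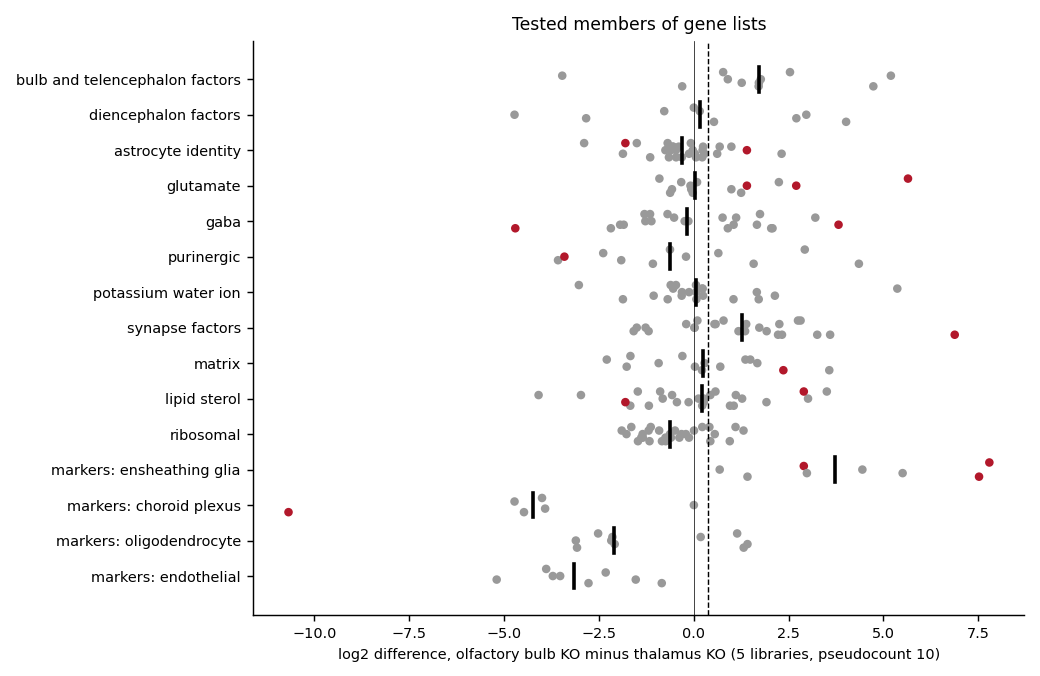
Log2 differences of the tested members of 15 gene lists between olfactory bulb and thalamus KO astrocytes with 5 libraries. Red points passed in limma, black bars are list medians and the dashed line is the median of all genes (0.37). Ensheathing glia markers lie to the right and choroid plexus and endothelial markers to the left, and the median of the astrocyte identity genes is -0.31.

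Markers of other cell types were summed per library. Ensheathing glia markers summed to 6182, 10074 and 5518 CPM in the olfactory bulb and to 1301, 2532 and 1825 CPM in the thalamus, without overlap (exact two-sided permutation test, p = 0.1, the smallest that 3 against 3 can give, and 0.2 without replicate 3, the smallest for 3 against 2 here). Of 15 members 8 were tested, all above 0, with a median of 3.71 with 5 libraries and 5.23 with 6. Over all genes 4705 of 8059 lay above 0 with 5 libraries (median 0.37) and 6253 of 8172 with 6 (median 1.47). Npy, Fabp7 and Frzb passed with 5 libraries, where 0.484% of all genes passed as higher. Npy and Frzb were at 0 in all thalamus KO libraries and reached the filter through the olfactory bulb alone, which fixed their direction. A marker found in the thalamus alone could not be tested with 5 libraries. Fabp7 and S100b are also astrocyte genes, and together they gave 3829, 5668 and 3365 CPM of the olfactory bulb sums and 858, 1048 and 42.0 CPM of the thalamus sums. The other 13 markers summed to 2353, 4406 and 2153 CPM in the olfactory bulb and to 443, 1483 and 1783 CPM in the thalamus, again without overlap. Sox10, a factor of ensheathing glia and oligodendrocyte lineage cells, held 823, 1846 and 1630 normalized reads against 34.2, 10.4 and 0 (5.51, SE 1.76, limma, adjusted p = 0.159). The sensory neuron gene Omp was at 0 in 5 of the 6 libraries and at 1 read in the other. The sums lay higher where the called genes did, and include called genes. Their part in those differences was not tested.

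Neuroblast and bulb interneuron markers summed to 41.9, 434 and 137 CPM in the olfactory bulb and to 9.06, 0.111 and 0 in the thalamus (exact two-sided permutation test, p = 0.1). Dcx was at 0 in olfactory bulb KO replicate 1 and in all thalamus KO libraries, and at 1108 and 282 normalized reads in the other olfactory bulb libraries. Oligodendrocyte markers summed to 2692, 6133 and 3033 CPM in the olfactory bulb and 3223, 29679 and 76276 CPM in the thalamus (exact permutation p = 0.2). Mbp, the myelin basic protein gene, alone took 1980, 25068 and 66223 CPM in the thalamus. Fibroblast markers summed to 6.21 to 190 CPM against 486 to 1711, and endothelial markers to 18.9 to 82.2 against 206 to 825 CPM (exact permutation p = 0.1 for each). Igf2, whose normalized reads are given above, made up most of the fibroblast sum of thalamus KO replicate 3. Without Igf2 the fibroblast sums of the regions overlapped. The endothelial gene Cldn5 held 68.0, 213 and 90.6 normalized reads against 41.7, 893 and 1029. In CPM, Cldn5 was at 5.77, 21.5 and 8.85 against 4.09, 76.2 and 41.2, where thalamus KO replicate 3 was not the highest. Microglia markers ranged from 123 to 770 CPM and from 82.3 to 3568, neuronal markers from 141 to 313 and from 153 to 599. Cx3cr1 held 0, 529 and 305 against 0, 1254 and 0, Snap25 590, 2072 and 2084 against 704, 3624 and 2880, and Col1a1 0, 81.1 and 49.4 against 8.20, 460 and 0 normalized reads. Ensheathing glia and neuroblast sums were thus higher in every olfactory bulb KO library and endothelial sums in every thalamus KO library. Fibroblast sums were higher in every thalamus KO library only with Igf2 included. The part of these cell types in the regional differences was not tested.

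The same regional comparison in the control libraries, which share no library with the knockout, called 51 genes higher in the olfactory bulb (0.563% of 9051 genes) and 29 lower (0.32%), 80 in all (0.884%). All 51 were tested in the KO libraries. With 5 KO libraries 48 of them had the same direction and 17 passed, and with 6 libraries 49 had it and 2 passed. Of the 29 lower genes 25 kept their direction with 5 libraries and 18 with 6, and 1, Clu, passed with 5. Over all 7467 genes tested in both, 56.8% had the same sign and the log2 differences correlated at Pearson r = 0.235 across genes, which are not independent replicates.

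Read from the KO side, 43 of the 44 genes had the same sign in WT, and 18 passed in both genotypes, 40.9% of the KO calls and 22.5% of the WT calls. The 18 include Ncan, Kctd12, Fabp7, Chst2, Chrdl1, Adgrb1, Sema5a, Clca3a1, Apod, Npy, Frzb, Glul and Clu. Kctd12 held 28423, 32016 and 27811 normalized reads in WT olfactory bulb and 484, 262 and 421 in WT thalamus, or 6.25 on the log2 scale where the KO gave 3.82. Ncan held 64298, 65440 and 62921 against 15718, 17052 and 15260 in WT (2.00, KO 2.36), and Fabp7 38734, 36475 and 30686 against 2645, 2078 and 2379 (3.89, KO 2.90). Ttr in WT thalamus ran from 2265 to 1130253 and did not pass (-11.05, SE 2.56, limma, adjusted p = 0.261). The 1 gene of opposite sign, Kbtbd11, was named after its values were seen. It held 9005, 920 and 2344 against 1823, 0 and 0 in KO and 762, 480 and 1442 against 2352, 2626 and 1514 in WT.

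Whether a regional difference itself differed between genotypes was tested by the interaction of region and genotype. It called 0 of 10965 genes (0%) with all 12 libraries in limma, with 453 at an unadjusted p under 0.05 and a smallest adjusted p of 0.922. Without thalamus KO replicate 3 it called 0 of 10928, with 571 at an unadjusted p under 0.05 and a smallest adjusted p of 0.178. The KO minus the WT regional difference of Kctd12 was -2.43 (SE 0.75, limma, adjusted p = 0.584), that of Kbtbd11 5.69 (SE 1.37, adjusted p = 0.178), that of Tcf7l2 3.81 (SE 1.35, adjusted p = 0.736) and that of Ptprt 2.83 (SE 0.92, adjusted p = 0.63) without that library. A regional difference was thus not shown to depend on the genotype label for any gene, and with median standard errors of 2.49 and 2.36 on the log2 scale even large interactions did not pass. That of Adam23 was -5.14 (SE 1.44, limma, adjusted p = 0.541), and that of the matrix link protein gene Hapln1, named after its values were seen, was -6.40 (SE 1.84, limma, adjusted p = 0.541).

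**Figure D5:**
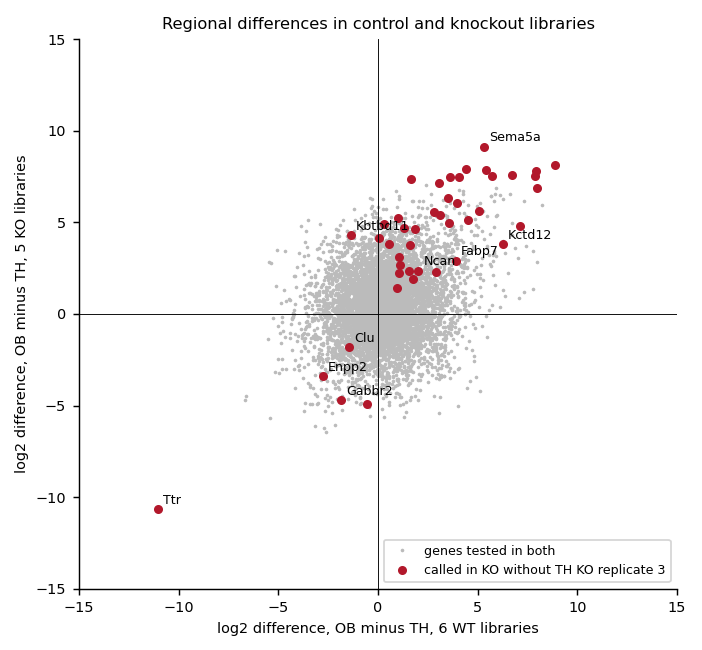
Log2 difference of olfactory bulb minus thalamus in the WT libraries (x axis, 6 libraries) and in the KO libraries without thalamus KO replicate 3 (y axis). Red points are the 44 genes called in KO, grey points the other genes tested in both. Of the 44, 43 lie in the quadrants of equal sign, and Kbtbd11 is the exception.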

How the data were processed

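Per the labels' protocols, libraries of sorted-cell RNA were prepared with the Revelo High Sensitivity kit, starting at 10 ng. Read checks (FastQC 0.10.1 and MultiQC 0.9), alignment software (STAR 2.5.0a) and DESeq2 1.20.0 under R 3.5.2 appear in the submitters' processing notes, as does mm10. The sources used here do not give the counting tool, the annotation or strand use, and reads from overlapping genes on opposite strands cannot be told apart. Deposited values are a signal, reads divided by 1 size factor per library by the authors, as the values show: in every library 100% were whole multiples of a smallest step within 0.001. That step was taken as 1 read, which gave recovered reads for 22 of 24 columns. Steps close to a power of 10 were not accepted for recovery, among them that of thalamus KO replicate 3 (9.90), so the read total, floor and CPM of that library rest on taking its step as 1 read. The table has 24421 entries, and without 27 whose names are calendar dates there were 24394 genes.

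Groups and replicate numbers came from the labels. limma 3.58.1 in R 4.3.3 (lmFit, eBayes with trend and robust) was run on log2(value + 10) for genes at 10 or more in at least 3 libraries, with Benjamini-Hochberg adjustment over all genes tested and calls at an adjusted p under 0.05. Differences on this scale, with its pseudocount, come out too small for low genes. Single sums per library had exact permutation tests. edgeR 4.0.16, DESeq2 1.42.0 and limma-voom were run on recovered reads of 5 libraries as alternatives. The test was tried on simulated data with known changes. The gene coordinates are those of the GENCODE annotation of GRCm38.

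The members, the lists and the rule for named genes were chosen with earlier results of these data known. Named were the NFI genes, up to 12 called genes in each direction by p (filled to 8), called members and up to 4 others of each list described, and defining markers of other cell types. Any other gene is said to be named after its values were seen. Some genes of the lists are not reported here.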

Additional observations from a re-analysis of the deposited data

How the results depend on the processing

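The count of 3 genes with all 6 libraries was 0 without a filter on low values, 48 with array weights, 21 in a fit over the KO libraries of 4 regions and 64 in a fit over all 8 groups, and from 0 to 44 when 1 library was left out. The count of 44 without thalamus KO replicate 3 was 10 with a pseudocount of 1, 22 with 100, 5 without a filter, 17 at 50 or more, 26 with array weights, 16 in the fit over 4 regions, 6 in the fit over 8 groups, 14 with edgeR, 351 with DESeq2 and 13 with limma-voom, and from 8 to 227 when another library was left out. With the replicate block it was 15, and 3 with the block and 6 libraries. Deviations of same-numbered libraries from their group means correlated at 0.041, -0.028 and -0.019, so the numbers are taken not to pair them. The WT count of 80 was 45 with a pseudocount of 1 and from 21 to 68 when 1 library was left out. The interaction called 0 genes under every setting run (pseudocounts of 1 and 100, replicate block, without thalamus KO replicate 3). Of single genes, the fitted log2 difference of Enpp2 reversed, though not that of its arithmetic means, from 0.19 with 6 libraries to -3.41 without thalamus KO replicate 3 (from -3.41 to 2.40 when 1 library was left out), and it was -0.59 with a pseudocount of 100 and -2.24 with array weights. The cause of these changes was not tested. With 5 libraries the median of all genes was 0.37 as deposited, 0.27 by TMM, 0.39 by library totals and 0.31 by upper quartiles. Upper-quartile factors could not be computed for 6 libraries, because the upper quartile of thalamus KO replicate 3 was 0, and the count tools were run on 5 libraries only. At 2522171 reads, that library's floor of 3 reads was 29.7 normalized reads. The filter at 2 libraries, the library totals and all alternatives on 5 libraries other than the count tools were chosen after seeing the data.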
